A study of Rattus norvegicus with 56 samples.

Results

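The hippocampus and the parietal cortex were compared within each of 8 old sham-treated rats, 4 labelled AU_Sham and 4 labelled AI_Sham. The comparison took every first array of these animals, which gave 8 hippocampus and 8 cortex arrays, 16 of the 56 arrays in the series. The 2 arrays of an animal were paired through the animal number that their labels share. All 8 animals were male Long-Evans rats of 26 to 27 months. They had been lightly anesthetized with isoflurane, sedated with dexmedetomidine, handled as for magnetic stimulation without receiving it, and given a reversal agent for the sedation, and their tissue carried the label of 48 h after treatment. AU stands for aged unimpaired and AI for aged impaired, a division that the labels take from each rat's score in a Morris water maze, with 4 animals in each. Young sham rats of 6 to 7 months (Y_Sham, 4 animals) were prepared in the same way, but with higher doses of sedative and reversal agent per body weight. They and the 12 stimulated rats of the series served only to set the regional differences beside those of other animals. The RNA of 1 region of 1 animal was labelled for each array, so every value is an average over all cells of a dissected piece of tissue. The hippocampal piece was the dorsal part.

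The hippocampus is a folded sheet of 3-layered cortex, with granule cells in the dentate gyrus and pyramidal cells in fields CA1, CA2 and CA3, and it is needed for spatial and episodic memory. The parietal cortex is 6-layered neocortex that handles touch and spatial information. The principal cells of both are glutamate neurons of the same developmental origin, the dorsal telencephalon. They part under the control of transcription factors such as TBR1, FOXP2 and the NEUROD family, and they differ in the receptors, channels and peptides they make.

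Expression is given as a normalised log2 signal, in which 0 is the mean of an array and 1 unit is a doubling of the signal, and a regional difference is the hippocampus value minus the cortex value of the same animal. On the 8 hippocampus arrays 62.7% to 67.1% of probes were well above background and on the 8 cortex arrays 61.1% to 66.4%, so the share of probes detected was similar in both regions. The hippocampus arrays lay on 3 slides and the cortex arrays on 3 others with 0 shared, so slide and region cannot be told apart within these arrays. Both arrays of 6 animals were scanned on the same day, and those of AU_Sham 1 and AI_Sham 1 on separate later days. The cortex arrays of AI_Sham 3 and AI_Sham 4 stood apart from the other cortex arrays in their levels of genes enriched in hippocampus. They had the 2 highest cortex levels of 5 of the 10 genes most enriched in hippocampus, among them C1ql2 (2.33 and 2.22, against 0.22 to 1.04 in the other cortex arrays). The hippocampus array of AI_Sham 2 also departed from the other hippocampus arrays, with values given below. Where a count given for a list changed without AI_Sham 3 and AI_Sham 4, the count without them is given beside it.

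Of 30837 probes tested, limma called 6431 (20.9%) at an adjusted p under 0.05, 3384 (11%) toward hippocampus and 3047 (9.88%) toward cortex. Without AI_Sham 3 and AI_Sham 4 the test called 3740 of 30151 probes, and 3445 of these were among the 6431. A difference of at least 1 log2 unit was also reached by 2208 probes (7.16%), 1171 (3.8%) toward hippocampus and 1037 (3.36%) toward cortex. For 2296 probes (7.45%) the 8 hippocampus values and the 8 cortex values did not overlap. Among the 12965 named genes tested, 2800 (21.6%) were called, 1441 higher in hippocampus and 1359 higher in cortex, and the median difference was 0. These shares are the background for the gene lists that follow, and any list is described by its counts and median beside them. They hold for all 8 animals. Calls over all probes fell to 3740 of 30151 without AI_Sham 3 and AI_Sham 4. A smaller count for a list without these animals therefore does not by itself show that the list depended on them more than other genes did. The lists share some genes, such as Foxp2 and Neurod1, so their counts are not independent of each other.

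The region labels were checked with 3 marker genes given for the comparison, and all 3 were higher in hippocampus. Klk8, which encodes the secreted serine protease neuropsin, had levels from 5.56 to 6.23 on the hippocampus arrays (median 5.98) and from -2.99 to -0.47 on the cortex arrays (median -1.21), where 7 of 8 arrays were above background. The difference was 7.43 ± 0.26 (SE, n = 8 animals, limma adjusted p = 6.45e-07), and the regions were far from overlapping. Neurod6, a bHLH transcription factor of pyramidal neurons, ran from 6.74 to 7.24 in hippocampus (median 6.92) and from 4.75 to 5.62 in cortex (median 4.94). It was thus detected on every array of both regions and 1.9 ± 0.14 (SE) higher in hippocampus, with no overlap. Zbtb20, a zinc finger repressor needed for the hippocampal identity of pyramidal cells, ran from 1.42 to 2.75 in hippocampus (median 2.16) and from 0.54 to 1.47 in cortex (median 0.97). It was higher in hippocampus in 8 of 8 animals by 1.24 ± 0.17 (SE), although the lowest hippocampus array, that of AI_Sham 2, fell inside the cortex range.

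**Figure D1:**
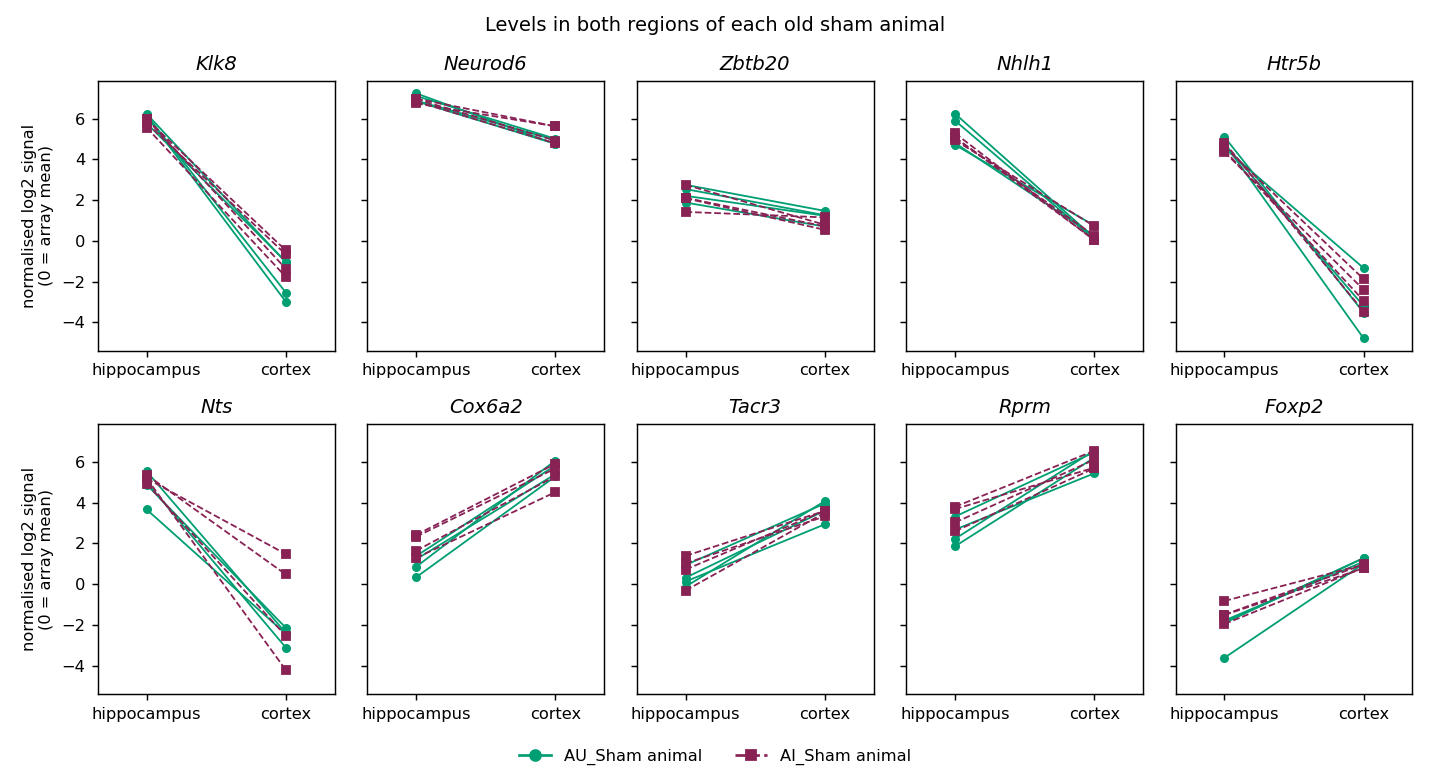
Normalised log2 signal (0 is the array mean) of 10 genes in hippocampus and parietal cortex, with a line joining the 2 arrays of each animal (solid with circles, 4 AU_Sham; dashed with squares, 4 AI_Sham). The first 6 genes were higher in hippocampus and the last 4 higher in cortex in every animal, and the 2 highest cortex values of Nts (0.47 and 1.47) belong to AI_Sham 4 and AI_Sham 3.

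The upstream sequences of 3 of the genes described here are shown because they are transcription factor genes enriched in hippocampus (Neurod6, Nhlh1) or the gene most enriched in cortex among those detected on all arrays (Cox6a2). Each run is the 250 bases before the annotated start in RefSeq, rat build GRCr8, all 3 on the minus strand, at chr4:86180156-86180405, chr13:87054935-87055184 and chr1:192219717-192219966. Capitals mark the E-box CAGATG, a motif class bound by bHLH factors such as NEUROD6 and NHLH1, on either strand, and the TATA motif TATAAA on the gene's strand.
Neurod6: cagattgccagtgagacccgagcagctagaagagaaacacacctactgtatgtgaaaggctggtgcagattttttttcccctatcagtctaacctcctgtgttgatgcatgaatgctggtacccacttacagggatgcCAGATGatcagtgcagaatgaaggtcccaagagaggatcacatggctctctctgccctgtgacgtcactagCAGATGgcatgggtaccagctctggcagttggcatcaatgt
Nhlh1: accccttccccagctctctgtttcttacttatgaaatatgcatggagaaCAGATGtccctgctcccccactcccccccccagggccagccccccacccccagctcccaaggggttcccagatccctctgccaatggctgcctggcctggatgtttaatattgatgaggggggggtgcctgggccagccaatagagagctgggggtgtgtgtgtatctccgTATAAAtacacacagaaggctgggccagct
Cox6a2: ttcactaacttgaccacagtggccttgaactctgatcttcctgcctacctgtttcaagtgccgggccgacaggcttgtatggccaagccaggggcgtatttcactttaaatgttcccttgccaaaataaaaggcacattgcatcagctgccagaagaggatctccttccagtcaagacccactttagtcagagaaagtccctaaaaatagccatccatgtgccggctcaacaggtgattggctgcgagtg
The Neurod6 sequence held 2 copies of CAGATG and that of Nhlh1 held 1 beside 1 TATAAA, and neither motif was in the Cox6a2 sequence. CAGATG or its reverse complement CATCTG occurred in 14% of 33469 rat upstream sequences of this length. TATAAA occurred in 8.06% of them. Of the 10 named genes with the largest differences toward hippocampus, 9 had an upstream sequence and 1 held the E-box, and of the 10 toward cortex 7 had one and 1 held it.

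The genes with the largest differences toward hippocampus included growth factor and calcium-binding genes. Nhlh1, a bHLH factor of young neurons, had levels from 4.71 to 6.24 in hippocampus (median 5.07) and from 0.03 to 0.75 in cortex (median 0.2). Its difference of 4.96 ± 0.24 (SE, limma adjusted p = 2.48e-06) was 31.1-fold. C1ql2, a secreted synapse organizer of dentate granule cells, ran from 5.14 to 6.31 and from 0.22 to 2.33 (21.9-fold), its 2 highest cortex values being those of AI_Sham 3 and AI_Sham 4. Fibcd1, a marker of CA1, was at 8.15 to 8.92 in hippocampus and 3.89 to 4.79 in cortex (18.8-fold). Further genes toward hippocampus were Cabp7 (4.18 ± 0.16, SE), a neuronal calcium-binding protein, Calml4 (3.61 ± 0.25), a calmodulin-like protein, and Atp2a1 (3.53 ± 0.2), the calcium pump of fast skeletal muscle. Nmb, Ntf3 and Vav3 had differences of 3.65 ± 0.14, 3.53 ± 0.17 and 3.45 ± 0.15. They encode the peptide neuromedin B, neurotrophin-3 and an exchange factor for small GTPases. None of the 10 genes overlapped between the regions.

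Toward cortex, 3 of the 10 leading genes are best known from striated muscle. Cox6a2, the heart and muscle form of a cytochrome c oxidase subunit, had levels from 4.51 to 6.06 in cortex (median 5.53) and from 0.33 to 2.41 in hippocampus (median 1.32). The difference of -4.07 ± 0.13 (SE, adjusted p = 4.69e-07) was 16.8-fold. Trim54, a muscle ubiquitin ligase, was 10.6-fold higher in cortex and Abra, an actin-binding signalling protein of muscle, 7.73-fold. Rprm, a cell cycle inhibitor expressed in deep cortical layers, ran from 5.43 to 6.55 in cortex and from 1.85 to 3.79 in hippocampus (9.19-fold). The neurokinin 3 receptor Tacr3 was 8.4-fold higher in cortex, the guanine nucleotide exchange factor Rasgef1c 9.51-fold and the hormone gene Rln1 (relaxin) 9.19-fold. Efna5, which encodes the guidance ligand ephrin-A5, had cortex levels within a narrow range (5.82 to 6.01) and hippocampus levels of 2.3 to 3.68. The olfactory receptor gene Olr59 was 15.7-fold higher in cortex with a wide spread in hippocampus (-0.79 to 2.45). The regions overlapped for Abra (0.04 to 2.58 in cortex and -2.55 to 0.43 in hippocampus) and for none of the others. The SD over the 8 arrays was 0.7 in hippocampus and 0.49 in cortex for Cox6a2, and 0.69 and 0.44 for Rprm.

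Some genes were detected in 1 region only. In all, 16 named genes were called and well above background on all 8 hippocampus arrays and on none of the cortex arrays, and 10 showed the reverse. For these the mean difference over 8 animals has only an approximate lower bound, and single animals can lie below it. The bound was computed from the lowest signal that counted as above background on the dim arrays. Some brighter signals of other probes did not count as above background, so the fold values given as "at least" may be too high. Of the first kind, Cxcr1 (a receptor of interleukin 8) was at least 32.1-fold higher in hippocampus, with levels from 1.15 to 2.33. The sulfotransferase genes Chst9 and Ndst4, whose products modify sugar chains of the cell surface, were at least 18.5-fold and 15.3-fold higher. The transcription factor genes Dmrt3, En2 and Meox1 were at least 8.73-fold, 5.02-fold and 4.91-fold higher. Detected in cortex alone were Cd200r1, the receptor of the immune regulator CD200 (at least 11.3-fold), and Ahrr, a repressor of the aryl hydrocarbon receptor (at least 6.8-fold). The others were Enthd1 (at least 5.95-fold), Msln, a surface protein of mesothelium (5.06-fold), and the olfactory receptor genes Or51a39 and Or51a25 (4.26-fold and 4.01-fold). Over the animals the measured log2 difference ran from 0.76 to 5.57 for En2 and from -4.55 to -0.63 for Msln. The mean measured difference of Msln was -2.86 in old sham animals. It was nearer to 0 in Y_Sham (-0.97 ± 1.9, SD) and in old stimulated animals (-0.92 ± 0.93).

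Markers of hippocampal fields and of cortical layers were taken as lists, and their members moved unevenly. Of 18 tested markers of CA1, CA2, CA3 and dentate granule cells, 10 were higher in hippocampus, 0 were higher in cortex and 8 were not called, and without AI_Sham 3 and AI_Sham 4 the counts were 9 and 0 of 17 tested. In a bulk sample fewer cells of a type and less RNA per cell cannot be told apart. Besides Fibcd1, the CA1 genes Wfs1 (1.7 ± 0.2, SE), an endoplasmic reticulum protein, and Pou3f1 (1.71 ± 0.14), a POU transcription factor, were higher in hippocampus. The CA2 markers Ntf3, Rgs14 (1.17 ± 0.13) and the adhesion gene Amigo2 (1.12 ± 0.11) were higher too, as were the CA3 markers Bok (1.55 ± 0.11), a BCL2 relative, and Grik4 (1.01 ± 0.18, higher in 7 of 8 animals), a kainate receptor subunit. The dentate gene Prox1, which keeps granule cells in their identity, was measured by 1 probe and did not separate the regions. Its levels were 6.45 to 7.97 in hippocampus (median 6.5) and 6.17 to 7.19 in cortex (median 6.83), and its difference was 0.02 ± 0.22 (adjusted p = 0.953), against 4.45 ± 0.24 for the other dentate gene C1ql2. The dentate channel gene Trpc6 was 0.51 ± 0.12 higher in hippocampus, a call that was lost without AU_Sham replicate 3 (0.5, adjusted p = 0.0555) and without AI_Sham 3 and AI_Sham 4 together (0.56, adjusted p = 0.0786).

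Of 8 tested markers of layers 6 and 6b, 6 were higher in cortex and 0 in hippocampus, with and without AI_Sham 3 and AI_Sham 4. Foxp2, a forkhead factor, ran from 0.78 to 1.28 in cortex and from -3.62 to -0.83 in hippocampus, where 1 array was not above background. The differences were -2.56 ± 0.44 (SE) for Cplx3, a complexin that acts on synaptic vesicles, -1.62 ± 0.18 for Tbr1 and -1.01 ± 0.1 for the matrix protein gene Ccn2. They were -1.33 ± 0.2 for the neurexophilin gene Nxph4 and -0.78 ± 0.15 for the synaptotagmin gene Syt6, which were above background on 3 and 5 of 8 hippocampus arrays. Of 7 markers of layers 2 to 4, the membrane protein gene Lamp5 (-2.22 ± 0.26), Cux2 (-0.93 ± 0.15) and Rorb (-0.9 ± 0.11) were higher in cortex. Scnn1a, a sodium channel subunit used as a marker of layer 4, was higher in hippocampus by 0.7 ± 0.13 at low levels in both (-2.15 to -1.3 and -3.12 to -1.84). Of 4 layer 5 markers, 2 were called toward cortex and 1 toward hippocampus, and without AI_Sham 3 and AI_Sham 4 the counts were 0 and 1. The membrane protein gene Parm1 (-0.55 ± 0.13) and Fezf2 (-0.41 ± 0.11), a factor that specifies neurons projecting to the spinal cord, were the cortical calls. Both were lost without AU_Sham replicate 3 (-0.53, adjusted p = 0.0507, and -0.41, adjusted p = 0.0683), and that of Fezf2 also without AU_Sham replicate 2 (-0.43, adjusted p = 0.0507) or AI_Sham replicate 3 (-0.35, adjusted p = 0.0758). The Fezf2 call was lost too in the first scan batch alone (-0.36, adjusted p = 0.076) and with the slide pair as a random block (-0.42, adjusted p = 0.0616). Bcl11b was higher in hippocampus, by 1.83 ± 0.11 with levels of 6.8 to 7.35 against 5.09 to 5.56, and a second probe of the gene gave 1.82 ± 0.17.

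Of 29 tested transcription factors that pattern the telencephalon, 9 were called toward hippocampus and 13 toward cortex, against 21.6% of all named genes called, and without AI_Sham 3 and AI_Sham 4 the counts were 8 and 11. Those toward hippocampus included bHLH factors. Neurod1 was higher there by 1.09 ± 0.15 (SE), Neurod2 by 0.95 ± 0.13 and Bhlhe22 by 1.63 ± 0.17, beside Neurod6, and all 4 were higher in 8 of 8 animals with no overlap between regions. The homeobox gene Emx2, needed for the growth of the hippocampus, was higher by 0.69 ± 0.09. Lhx9, a LIM homeobox gene, had steady hippocampus levels of 0.84 to 1.52 and cortex levels from -5.07 to 0.66, with 5 of 8 cortex arrays above background, and its difference of 3.81 ± 0.66 varied from 0.49 in AI_Sham 4 to 6.58 in AI_Sham 1. Toward cortex, the zinc finger gene Tshz3 (-1.72 ± 0.2), the homeobox gene Meis1 (-1.29 ± 0.11), the nuclear receptor gene Nr2f1 (-1.08 ± 0.14) and the chromatin organizer Satb1 (-1.06 ± 0.14) were higher in cortex as well.

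**Figure D2:**
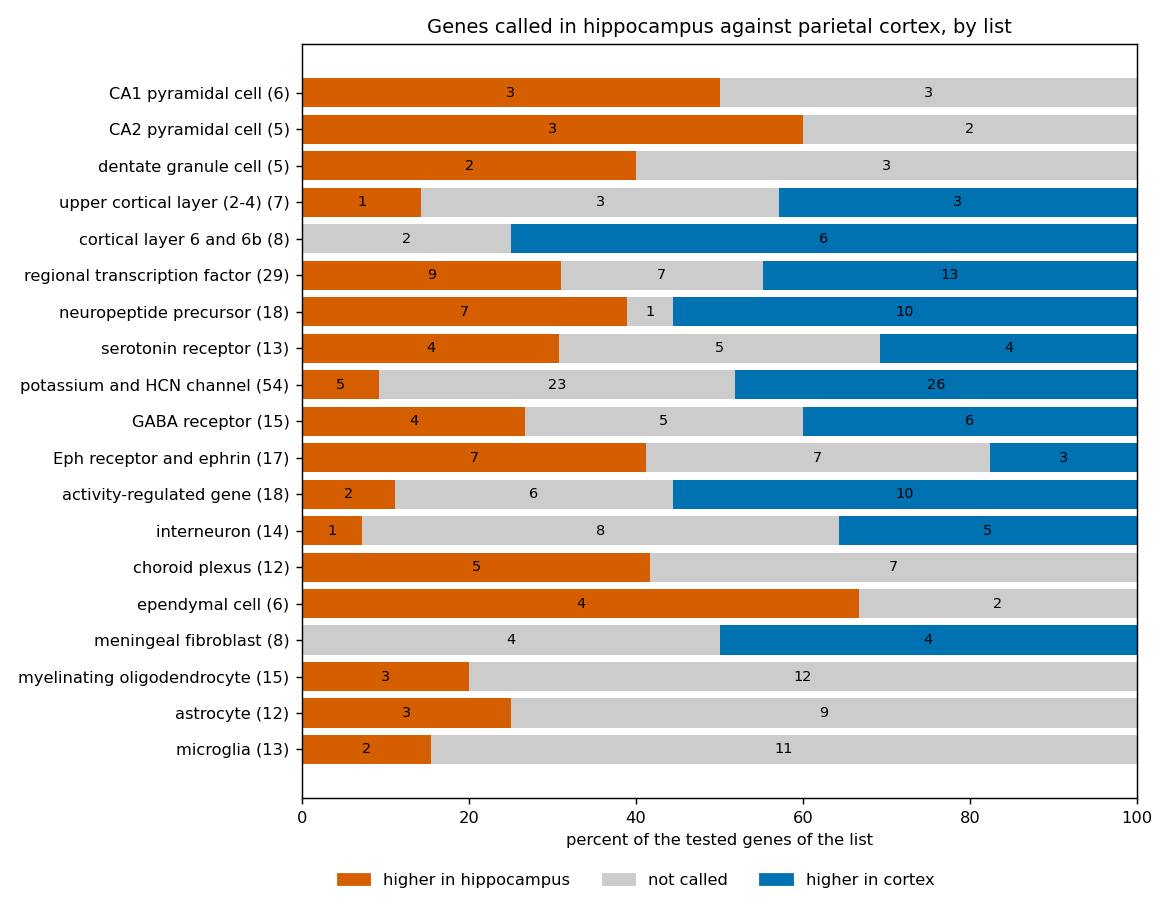
Tested genes of 19 lists (number tested in brackets), as the percent of each list called higher in hippocampus, not called, and called higher in cortex, with counts inside the bars. Layers 6 and 6b (6 of 8) and potassium channels (26 of 54) lean to cortex. The CA1, CA2, dentate, choroid plexus, ependymal, oligodendrocyte, astrocyte and microglia lists hold calls toward hippocampus alone. Of all probes 20.9% were called in either direction.

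Receptors for glutamate were split between the regions. Of 24 tested, hippocampus had the higher level for 4 and cortex for 6, and 14 were not called. Without AI_Sham 3 and AI_Sham 4 the counts were 2 and 5. The AMPA receptor subunit gene Gria1 ran from 5.55 to 6.71 in hippocampus and from 4.51 to 5.05 in cortex, 1.31 ± 0.14 (SE) apart, while Gria4 was higher in cortex (-0.73 ± 0.14). The NMDA receptor subunit gene Grin3a was higher in cortex too (-0.84 ± 0.14). Among metabotropic receptors, Grm8 (-1.61 ± 0.2) and Grm4 (-0.85 ± 0.15), both presynaptic receptors that restrain release, were higher in cortex. Of 15 genes for GABA receptors, the main inhibitory receptors of the brain, 4 were higher in hippocampus and 6 in cortex, or 2 and 5 without AI_Sham 3 and AI_Sham 4. The alpha subunits went in opposite directions. Gabra5, whose receptors carry tonic inhibition in hippocampal pyramidal cells, ran from 2.28 to 3.49 in hippocampus and from 0.57 to 1.54 in cortex (1.77 ± 0.15), and Gabra2 was 0.71 ± 0.12 higher there. Gabra3 (-1.51 ± 0.17) was higher in cortex, as were Gabrb2 (-0.76 ± 0.11) and Gabrd (-1.01 ± 0.1), the delta subunit of extrasynaptic receptors.

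Of 13 tested serotonin receptors, 4 were higher in hippocampus and 4 in cortex, and without AI_Sham 3 and AI_Sham 4 they were 4 and 3 of 12. Htr5b, which encodes the 5-HT5B receptor, ran from 4.36 to 5.1 in hippocampus (median 4.69) and from -4.79 to -1.34 in cortex (median -3.07), where 3 of 8 arrays were above background. Its measured difference was 7.63 ± 0.36 (SE, adjusted p = 2.45e-06), with most cortex signals not above background. Htr1a, the inhibitory receptor on pyramidal cells and on serotonin neurons, ran from 0.04 to 0.84 against -3.88 to -1.09 (2.79 ± 0.24), and Htr1b from -0.62 to -0.07 against -3.77 to -1.59 (2.58 ± 0.17). In cortex Htr1a was above background on 3 and Htr1b on 1 of 8 arrays, so both differences rest mostly on cortex signals at background. Htr4 was well above background on all hippocampus arrays and on no cortex array, and its approximate lower bound was 4.61-fold higher in hippocampus. Htr2a, the excitatory receptor that mediates the action of classical hallucinogens, was higher in cortex (0.61 to 1.42 against -1.67 to -0.12, difference -1.78 ± 0.13). Htr1d was not well above background on any hippocampus array and was so on 6 of 8 cortex arrays. Its approximate lower bound was 1.75-fold higher in cortex, and the true difference may be smaller.

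Among 23 receptors for noradrenaline, dopamine and acetylcholine, the alpha-1B adrenergic receptor gene Adra1b and the nicotinic subunit gene Chrna4 differed most. Adra1b ran from 5.07 to 6.01 in cortex and from 2.21 to 3.32 in hippocampus (difference -2.74 ± 0.14, SE). Chrna4 ran from 3.15 to 3.63 in cortex and from -0.65 to 2.01 in hippocampus (-2.59 ± 0.26). The nicotinic subunit gene Chrna7 was higher in hippocampus by 0.73 ± 0.15, and without AI_Sham 3 and AI_Sham 4 its difference was 0.67 with an adjusted p of 0.0702.

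Neuropeptide precursors were called more often than any other list of more than 10 genes, 7 of 18 higher in hippocampus and 10 higher in cortex, with a single gene not called, and 6 and 9 without AI_Sham 3 and AI_Sham 4. The widest gap was that of Nts (neurotensin), with hippocampus levels of 3.66 to 5.53 and cortex levels of -4.22 to 1.47, above background on 5 of 8 cortex arrays. The cortex values were below -2 in 6 animals and were 1.47 in AI_Sham 3 and 0.47 in AI_Sham 4, and the difference was 6.83 ± 0.56 (SE) over 8 animals. Thyrotropin-releasing hormone (Trh) was 2.27 ± 0.22 higher in hippocampus, with 3 of 8 cortex arrays above background. The opioid precursor Pdyn, a product of granule cells, was 0.92 ± 0.15 higher. Its mean difference was 0.83 ± 0.46 (SD) in old stimulated animals but 0.13 ± 0.55 in Y_Sham. In 2 repeat pairs of Y_Sham 3 with both regions on 1 slide it was -0.15 and -0.09. Cartpt, the precursor of the CART peptides, was 1.63 ± 0.37 higher. Cartpt was not called when AU_Sham 1 and AI_Sham 1 were both left out (1.37, adjusted p = 0.0637). Toward cortex, corticotropin-releasing hormone (Crh) was at 2.98 to 3.54 against 1.19 to 1.66 (-1.81 ± 0.09). Cortistatin (Cort, -1.8 ± 0.16), vasoactive intestinal peptide (Vip, -1.73 ± 0.15), the substance P precursor Tac1 (-1.35 ± 0.12), proenkephalin (Penk, -1.29 ± 0.17) and cholecystokinin (Cck, -0.89 ± 0.14) were also higher in cortex. Somatostatin (Sst, -0.77 ± 0.16) and neuropeptide Y (Npy, -0.62 ± 0.12) were higher in cortex as well, with overlap between the regions.

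**Figure D3:**
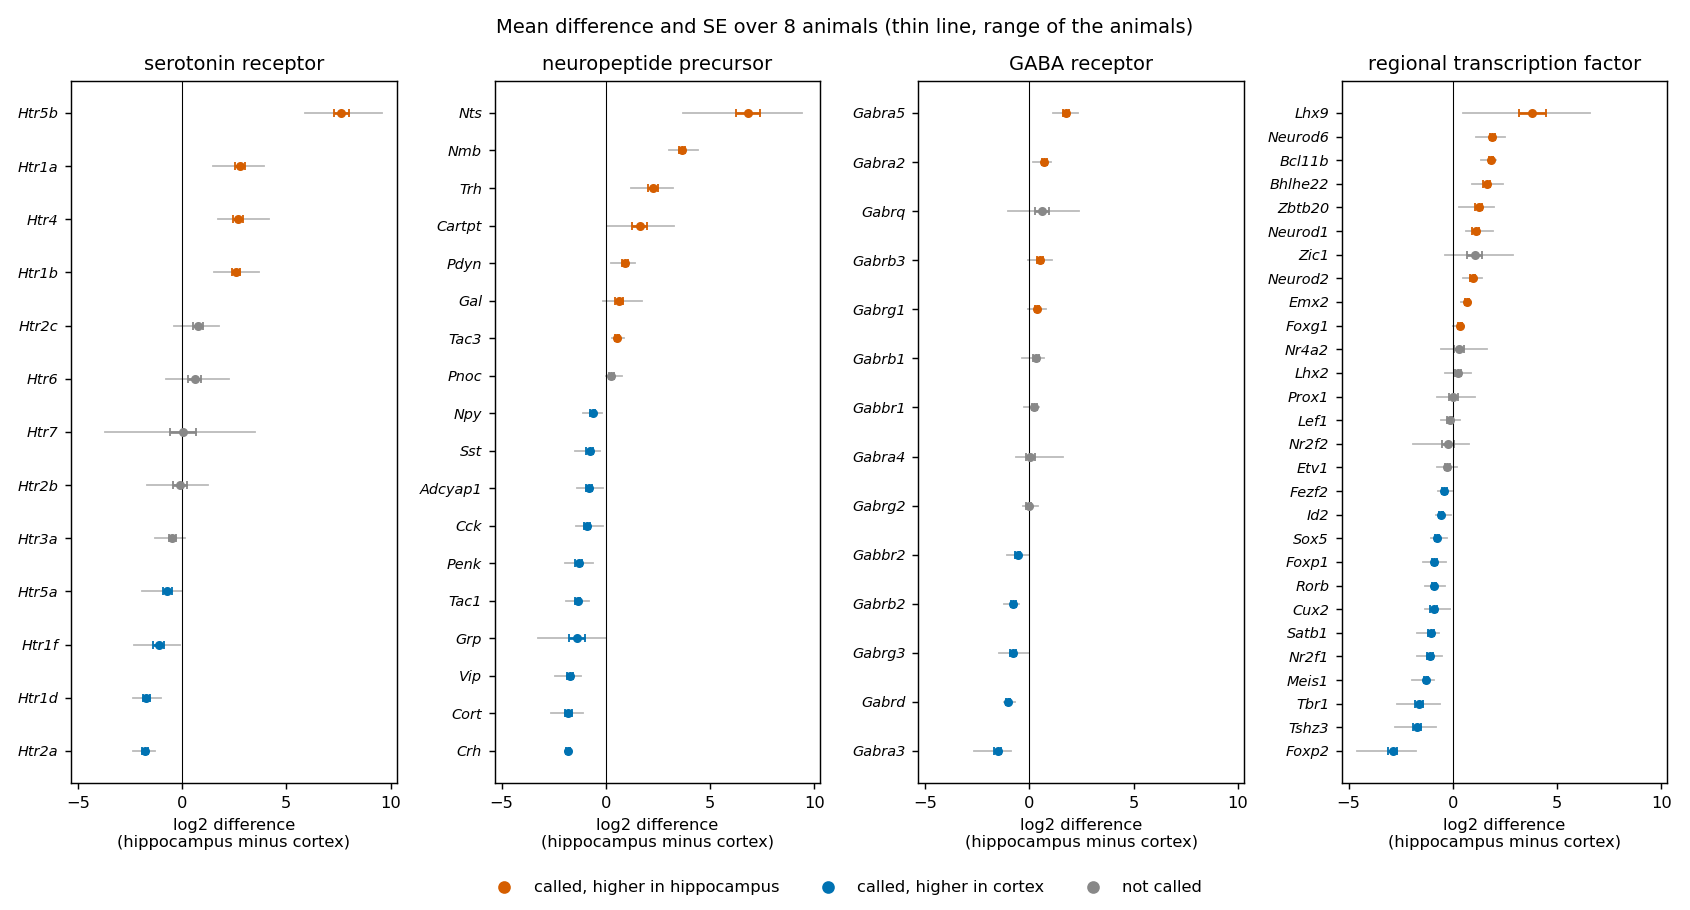
Hippocampus minus cortex difference (log2) of tested genes of 4 lists, as the mean and SE over 8 animals, with a thin line for the range of the animals and colour for the call. Htr5b (7.63) and Nts (6.83) are drawn far to the right at measured signals although 3 and 5 of 8 cortex arrays were above background, and Htr4 and Htr1d although 1 region was not above background on any array. Foxp2 (-2.89) lies farthest toward cortex.

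Of 14 tested markers of inhibitory neurons, 5 were called toward cortex and 1 toward hippocampus, or 5 and 0 without AI_Sham 3 and AI_Sham 4. The calcium-binding protein gene Pvalb, of fast-spiking basket cells, ran from 7.25 to 7.87 in cortex and from 6.09 to 6.93 in hippocampus (-0.97 ± 0.13, SE). The GABA-synthesizing enzyme genes Gad1 (-0.43 ± 0.16, adjusted p = 0.0922) and Gad2 (-0.21 ± 0.11, adjusted p = 0.205) were not called. Calb2 (calretinin) was the gene called toward hippocampus, at 0.89 ± 0.25, and it was not called without AI_Sham 3 and AI_Sham 4 (0.73, adjusted p = 0.0992) and lost its call when AU_Sham 2, AU_Sham 3, AU_Sham 4, AI_Sham 1 or AI_Sham 3 was left out (0.68 to 0.87, adjusted p = 0.0633 to 0.0878).

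Potassium and HCN channels, which set firing patterns and resting excitability, leaned toward cortex. Of 54 tested, 26 were higher in cortex, 5 higher in hippocampus and 23 not called, and the list's median difference was -0.54 against 0 for all named genes. Without AI_Sham 3 and AI_Sham 4 the counts were 17 and 3, with a median of -0.44. Kcns1, a silent subunit that modifies Kv2 channels, ran from 2.1 to 3.64 in cortex and from -0.83 to 1.32 in hippocampus (-2.71 ± 0.23, SE). Kcnt1, a sodium-activated potassium channel, ran from 6.33 to 7.07 and from 4.31 to 5.5 (-1.85 ± 0.11). Toward hippocampus, Kcnip2, an accessory subunit of A-type channels, was 1.3 ± 0.15 higher, and Kcnj6, the GIRK2 channel opened by inhibitory receptors, was 0.94 ± 0.12 higher. Of 17 Eph receptors and ephrins, membrane proteins that guide axons, 7 were higher in hippocampus and 3 in cortex, and without AI_Sham 3 and AI_Sham 4 the counts were 3 and 2. The receptor genes Epha8 (6.75 to 7.95 against 3.91 to 4.83, difference 2.96 ± 0.12) and Epha7 (1.88 ± 0.13) and the ligand gene Efnb3 (1.66 ± 0.17) were higher in hippocampus, opposite to Efna5.

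Among genes of the corticosteroid response, the 2 receptors differed from each other. Nr3c2, the mineralocorticoid receptor that binds corticosterone with high affinity, ran from 5.29 to 6.15 in hippocampus and from 3.68 to 4.19 in cortex (1.78 ± 0.09, SE). The glucocorticoid receptor gene Nr3c1 was at 4.91 to 5.46 and 5.02 to 5.5, a difference of 0.04 ± 0.1 (adjusted p = 0.803). Fkbp5, a target and brake of the glucocorticoid receptor, was 0.76 ± 0.1 higher in hippocampus. Of 9 tested genes linked to the formation of new neurons, Igfbpl1 (3.06 ± 0.3, above background on 3 of 8 cortex arrays) and Neurod1 were higher in hippocampus, while Dcx, a microtubule protein of migrating neurons, was higher in cortex (3.08 to 4.4 against 2.27 to 2.73, difference -1.08 ± 0.13).

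Activity-regulated genes, whose transcription follows neuronal firing within minutes to hours, were more often higher in cortex. Of 18 tested, 10 were called toward cortex and 2 toward hippocampus, with a median difference of -0.66, and without AI_Sham 3 and AI_Sham 4 the counts were 6 and 0. Fos ran from -0.46 to 1.73 in hippocampus (median 0.33) and from 0.77 to 4.22 in cortex (median 1.68). The regions thus overlapped, the difference was -1.62 ± 0.38 (SE, adjusted p = 0.0148), and it ranged from -3.72 to 0.21 over the animals. Egr1 was lower in hippocampus in 8 of 8 animals (-1.17 ± 0.12). Dusp1, a phosphatase that ends MAP kinase signalling, had a difference of -1.63 ± 0.32, and of -1.43 (adjusted p = 0.0577) without AI_Sham 3 and AI_Sham 4. Arc, which regulates AMPA receptors at active synapses, did not pass the test (-0.23 ± 0.2, adjusted p = 0.468). The genes called toward hippocampus were Bdnf (1.08 ± 0.22), a neurotrophin, and the nuclear receptor gene Nr4a3 (0.87 ± 0.21). Neither was called without AI_Sham 3 and AI_Sham 4 (1.02, adjusted p = 0.0624, and 0.89, adjusted p = 0.0785), and Nr4a3 was not called without AU_Sham replicate 2 (0.79, adjusted p = 0.0505) or without AU_Sham replicate 3 (0.82, adjusted p = 0.0541) either.

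Some markers of other cells that a dissected piece can hold also differed, and their part in the results above was not tested. Of 12 choroid plexus genes, the tissue in the ventricle beside the hippocampus, 5 were higher in hippocampus and 0 in cortex, also of the 11 tested without AI_Sham 3 and AI_Sham 4. Their mean level ranged from -0.27 to 2.65 over the hippocampus arrays and from -0.75 to 0.64 over the cortex arrays, and 2 were above background on no cortex array. The choroid gene Ttr ran from 5.03 to 10.7 in hippocampus and from 4.05 to 8.21 in cortex. It was highest in the hippocampus of AI_Sham 1 (10.7) and AI_Sham 3 (9.77) and was not called (1.73 ± 0.68, SE, adjusted p = 0.109). Otx2 (2.88 ± 0.6) and Folr1 (2.22 ± 0.43) were called toward hippocampus, each higher there in 7 of 8 animals. Of 6 ependymal genes, which mark the ciliated lining of the ventricle, 4 were higher in hippocampus, among them Foxj1, the master factor of motile cilia (1.41 ± 0.2), and Tmem212 (2.56 ± 0.48). Of 8 genes of meningeal fibroblasts, 4 were higher in cortex and 0 in hippocampus. Their mean level ranged from 1.19 to 3.62 over the hippocampus arrays and from 1.21 to 3.9 over the cortex arrays, and without AI_Sham 3 and AI_Sham 4 a single gene was called. The collagen gene Col1a1 had a difference of -1.44 ± 0.38, which was not called without AU_Sham replicate 3 (-1.42, adjusted p = 0.0616), without AU_Sham replicate 4 (-1.19, adjusted p = 0.0567) or without AI_Sham 3 and AI_Sham 4 (-1.25, adjusted p = 0.0501).

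Of 12 astrocyte genes 3 were higher in hippocampus, Gfap by 1.27 ± 0.2 (SE, 4.82 to 5.61 against 3.31 to 4.4), Sox9 by 0.72 ± 0.14 and Gja1 by 0.43 ± 0.1, and 0 were higher in cortex. Without AI_Sham 3 and AI_Sham 4, 2 were higher and Gja1 was not called (0.5, adjusted p = 0.064). Of 15 myelin genes 3 were called toward hippocampus and of 13 microglial genes 2, with median differences of 0.46 and 0.20. These counts, and that of the astrocyte genes, lie near the 21.6% of all named genes that were called. The myelin gene Mog had a difference of 0.66 ± 0.2 (adjusted p = 0.0451), and the complement gene C1qa, made by microglia, one of 0.42 ± 0.13 (adjusted p = 0.0487). Mog lost its call when any animal but AU_Sham 3 or AI_Sham 4 was left out (for example 0.51, adjusted p = 0.0878, without AU_Sham replicate 1), and C1qa when any but AU_Sham 1 was (0.35 to 0.45). Without AI_Sham 3 and AI_Sham 4 the difference of C1qa was 0.47 (adjusted p = 0.14), and 0 microglial genes were called. Of 12 genes of vessel cells 3 were called toward cortex, also near the 21.6% of all named genes, and 0 without AI_Sham 3 and AI_Sham 4. Of 6 blood cell genes and 5 MHC class II genes 0 were called, and 1 MHC class II gene was called toward hippocampus without AI_Sham 3 and AI_Sham 4. Of the genes used as marks of nearby tissue, the striatal list had 2 of 7 called toward cortex, among them Rgs9 (-0.5 ± 0.13). Rgs9 lost its call when AU_Sham 1, AU_Sham 2 or AU_Sham 4 was left out (-0.52 to -0.46, adjusted p = 0.0535 to 0.0575). It was also not called in a fit of all 24 animals (-0.5, adjusted p = 0.535) or in the first scan batch alone (-0.35, adjusted p = 0.0625). With the slide pair as a random block its adjusted p was 0.0508 (-0.52). The dopamine receptor gene Drd1 differed by -0.03 ± 0.16 (adjusted p = 0.924).

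Whether the regional difference depended on cognitive status was asked through the difference of AI_Sham and AU_Sham animals in it. limma called 0 of 30837 probes (0%), with 890 (2.89%) at an unadjusted p under 0.05, and the smallest adjusted p was 1. In simulated data this test recovered 9% of planted group differences of 1 log2 unit and 58% of those of 2. The 0 calls therefore do not show that the regional difference is the same in both groups. The named genes of smallest p that were less cortical in AI_Sham included the guidance cue gene Sema3a, Cox6a2, the calcium pump gene Atp2b4 and the chemokine gene Ccl21. The difference of Cox6a2 was -4.7 ± 0.47 (SD, n = 4) in AU_Sham and -3.43 ± 0.18 in AI_Sham. On the other side stood Tmem215 (1.74 ± 0.44 in AU_Sham and 0.33 ± 0.17 in AI_Sham), Nectin4 (2.38 ± 0.22 and 1.25 ± 0.31), Gm3045l, Ccdc40 and the crystallin gene Crygd (4.58 ± 0.2 and 3.45 ± 0.42). All 10 genes of smallest p, 5 in each direction, had an adjusted p of 1. In 8 of them, all but Gm3045l and Ccdc40, the mean difference had the same direction in both groups and was nearer to 0 in AI_Sham. The 10 genes were picked by this same contrast, so this count says nothing about other genes.

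A set of probes chosen without the old sham animals was used to view the size of the regional difference in each animal. In the 16 other animals 1220 probes were called at 1 log2 unit or more toward hippocampus and 1064 toward cortex. Over the first set the median difference was 1.77, 1.39, 1.87 and 1.79 in AU_Sham 1 to 4 and 1.5, 1.37, 1.5 and 1.05 in AI_Sham 1 to 4. Over the second it was -1.5, -1.63, -1.66 and -1.65 in AU_Sham and -1.53, -1.39, -1.33 and -0.96 in AI_Sham. The contrast between regions was thus narrowest in AI_Sham 4 on both sides, and the AU_Sham and AI_Sham ranges overlapped on both. The cortex arrays of AI_Sham 3 and AI_Sham 4 had the highest median levels of hippocampus probes (-0.94 each, against -1.68 to -1.31 in the other 6). They were the highest of the 8 cortex arrays for 20.2% and 22.9% of these probes, against at most 15% for any other cortex array. The hippocampus arrays of AI_Sham 2 and AI_Sham 4 had the highest medians of cortex probes (-0.81 each, against -1.29 to -0.96). That of AI_Sham 2 was the highest of the 8 hippocampus arrays for 33.4% of the cortex probes. It was the lowest for 25% of the hippocampus probes. The part of these levels in the comparison of AI_Sham and AU_Sham was not tested.

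**Figure D4:**
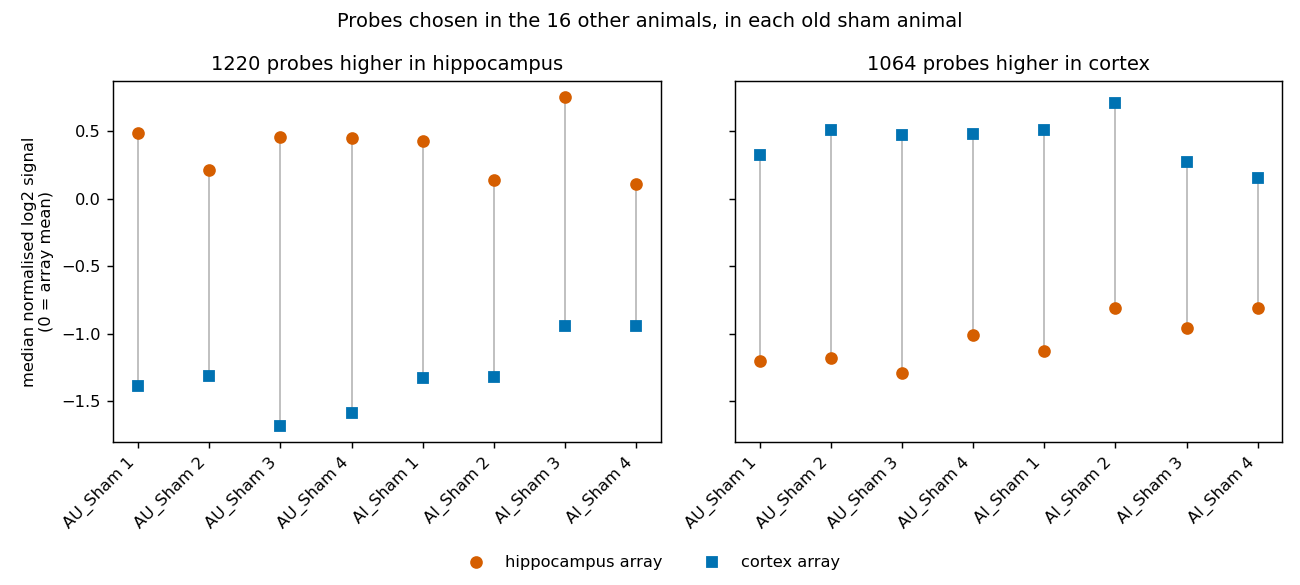
Median normalised log2 signal (0 is the array mean) on the hippocampus array (circles) and the cortex array (squares) of each old sham animal, over 1220 probes higher in hippocampus (left) and 1064 higher in cortex (right) in the 16 other animals. The gap between the arrays is narrowest in AI_Sham 4, and the cortex arrays of AI_Sham 3 and AI_Sham 4 sit highest in the left panel (-0.94).

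Against the 4 young sham animals the regional difference was tested in the same way. limma called 1 of 31888 probes (0.00314%), with 2111 (6.62%) at an unadjusted p under 0.05. The probe has no gene name in the table used and carries the transcript accession XR_598705. In the 4 young animals it was at 0.57 to 1.14 in hippocampus and at -2.8 to -2.08 in cortex, and in the 8 old animals at -0.01 to 1.05 and at -0.63 to 0.66. The difference between regions was therefore 3.27 in young and 0.58 in old animals (adjusted p = 0.0252), the cortex values being the ones that did not overlap between the ages. The call was lost (0 probes called) when AU_Sham 2 or 3, AI_Sham 1, 3 or 4, or any 1 of the young animals was left out. The named genes of smallest p, all with an adjusted p from 0.62 to 0.721, were Tmem40, Vill, the GABA receptor subunit gene Gabrr3, the telomerase RNA gene Terc and Or2av10 in 1 direction and A3galt2, Snai2, Flnc, Mboat7 and Nrip3 in the other. Nrip3 differed between regions by 1.81 ± 0.22 (SD, n = 4) in AU_Sham, 1.25 ± 0.12 in AI_Sham and 2.25 ± 0.3 in Y_Sham.

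The regional differences were also seen in the animals not used in the fit. Of the 2208 probes called at 1 log2 unit or more, the mean difference had the same sign in Y_Sham animals for 98.6%, in old stimulated animals for 99.6% and in young stimulated animals for 97.8%. The direction held in every one of the 4 Y_Sham animals for 87.1% of them, in every one of the 8 old stimulated animals for 77.3% and in every one of the 4 young stimulated animals for 86.6%. Since slide and region coincided in the old sham arrays, the repeat arrays of the animal Y_Sham 3, whose 2 regions lay on 1 slide, were compared as well. In these 2 repeat pairs 97% and 97.3% of the probes had the same sign, with differences of 8.56 and 7.45 for Klk8 and -5.39 and -5.29 for Cox6a2.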

How the data were processed

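Total RNA of each region was labelled with 1 dye, hybridized to Agilent rat arrays and read with Feature Extraction 12.0.3.1. The deposited scanner files gave the authors' processed signal intensity per spot (background-subtracted, not normalized between arrays) for 62976 features. The authors also deposited a score per feature and array (z-score of log signal), used as an alternative. Its scale and direction matched the scanner values on every array (r across probes at least 0.99996), and its column medians were -0.35 to -0.22.

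Between 328 and 875 non-uniform or outlying spots were dropped on each array, and the spots of each of the 45598 probes were averaged. As in the study, log2 processed signal was scaled to a z-score over non-control probes, here multiplied by 4.09, the mean SD. Probes well above background on at least 3 of 8 arrays of a region were tested. Names came from RefSeq (GRCr8) by transcript accession (46.3% of probes), with 1 probe per gene, that of highest mean signal.

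Differences within animals were fitted with limma 3.58.1 in R 4.3.3 with group means for AU_Sham and AI_Sham, the contrast being their average, with two-sided Benjamini-Hochberg adjusted p-values over all probes tested. The pairing comes from animal numbers in the labels. Over all tested probes the deviations of the 2 arrays of an animal correlated at r = -0.207 to 0.235, above the highest r with another animal (0.0777 to 0.307) in 2 of 8 animals, so they did not show the pairing. Over 200 probes chosen for the strongest shared deviation within the other old sham animals, each hippocampus array correlated with the cortex array of its own animal (r = 0.411 to 0.704) more than with any other (at most 0.245). The deviations were taken from the mean of the animal's own group, which includes that animal. Choosing probes in its group mates therefore favours its own match, so this check cannot show the pairing either. The number of arrays limits the precision. Genes named are list members, the 10 largest toward each region (called, above background on all 16 arrays, same direction in all 8 animals), the 6 with the largest lower bound in each direction, and for group contrasts the 5 of smallest p in each direction. The comparison, its members, the gene lists and the tests were chosen with earlier results of these data known. The script was tested on simulated data. Alternatives covered scaling, background correction, filters, scan day, slide, pairing, other fits and each animal left out. The study's own selection criteria were another. 1 array with contradictory labels was left out. Some list members and leading genes are not reported here.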

Additional observations from a re-analysis of the deposited data

Results flagged for a closer look

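In 129 genes the 8 differences were searched for a single animal far from the rest, which chance gives in about 1 of 20 genes, and 2 were found. The difference of C1qa was -0.34 in AU_Sham replicate 1 and from 0.30 to 0.73 in the others. That of Gja1 was 0.87 in AI_Sham replicate 1 and at most 0.49 in the others.

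The regional difference of the probe XR_598705 was lower in old than in young sham animals (old minus young -2.69 log2 units, limma adjusted p = 0.0252). For 4 genes every animal of 1 group moved one way and every animal of the other the opposite way, and their differences between groups did not pass the test across all probes. These were Ccdc40 (AI_Sham minus AU_Sham -1.54, adjusted p = 1), Gm3045l (-1.64, adjusted p = 1), Mboat7 (old minus young -0.72, adjusted p = 0.648) and Tmem40 (1.66, adjusted p = 0.62).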

How the results depend on the processing

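The count of 6431 probes called was within 1.5 times of its value under other scalings, the authors' z-scores, normexp background correction, other filters, scan day as a term, the first scan batch alone and a fit of all 24 animals, and hippocampus took 45.8% to 55.7% of the calls across settings. It was 4173 with the slide pair as a random block and 1451 under the selection criteria of the study. Without the pairing of arrays by animal (no replicate block) it was 7451, and 2231 of at least 1 log2 unit. Leaving out 1 animal gave 4374 (without AU_Sham 3) to 6199, and 1989 to 2242 of at least 1 log2 unit. Without AI_Sham 3 and AI_Sham 4, an alternative chosen after seeing the data, it was 3740. The count of 2208 probes was 1202 with probes above background on all arrays and 1035 with a mean z-score above 0. The comparison of AI_Sham and AU_Sham gave 0 calls when any 1 animal was left out. That of old and young gave 0 to 2 calls when 1 animal was left out, and 0 under normexp, above background on all arrays, no filter, a mean z-score above 0, the first scan batch alone and without AI_Sham 3 and AI_Sham 4. Of 122 called genes named here as list members or leading genes, 108 kept their call and direction under every setting that tested them and 14 lost it under at least 1. With the slide pair as a random block the calls of Calb2, Nr4a3, Mog, C1qa, Col1a1, Rgs9 and Fezf2 were lost. Differences that were not called changed sign for Prox1 (-0.28 without AI_Sham 3 and AI_Sham 4, and -0.15 to 0.16 when 1 animal was left out) and Drd1 (-0.11 to 0.09 when 1 animal was left out). The causes were not tested. Probes near background have only approximate bounds, and a difference of 1 log2 unit may go uncalled at this number of animals.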
